A study of Mus musculus with 20 samples.

Results

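Liver transcripts of 6 genes of fatty acid and lipoprotein metabolism, Scd1, Fads2, Gpam, Ehhadh, Acadvl and Apob, were described in 20 mice. They were chosen by symbol and are 6 of the 2200 mouse genes that passed a filter on low counts, and all 6 passed it. There were 4 groups of 5 mice: anti-CD40 with antibiotics (ABX), anti-CD40 without ABX, control with ABX and control without ABX. CD40, the target of the antibody, is a costimulatory receptor on antigen-presenting cells and belongs to the family of tumour necrosis factor receptors. The antibody's clone, dose and timing, what the control mice received, the antibiotics, and the strain, sex and age of the mice are not stated in the labels. Each library came from the liver of 1 mouse, as snap-frozen sections extracted with trizol.

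The authors aligned the reads to the mouse genome (mm10) but counted them at the exon coordinates of a human annotation, so the gene identifiers they deposited do not name the mouse genes. Each counted interval was read here as an mm10 position, and a mouse gene's count is the sum over intervals that lay over the exons of that gene alone by at least 50 bp. Each gene was therefore measured over a part of its transcript, between 2.15% of the exon length for Ehhadh and 20% for Gpam. Libraries held 5053014 to 7618736 counted fragments in all. Levels are given as CPM, the counts scaled to a fixed library size, after TMM scaling, which corrects for differences in library composition. In this bulk tissue, fewer cells of a type and less RNA per cell cannot be told apart.

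The liver makes fatty acids from sugar-derived carbon, desaturates and elongates them, joins them to glycerol as triglyceride, and exports triglyceride in very-low-density lipoprotein. In fasting it instead oxidizes fatty acids, in mitochondria and in peroxisomes. Scd1 (stearoyl-CoA desaturase) makes monounsaturated fatty acids and Fads2 (delta-6 desaturase) starts the synthesis of long polyunsaturated ones. Gpam, the mitochondrial glycerol-3-phosphate acyltransferase, takes the committed step to triglyceride. Ehhadh is the bifunctional enzyme of peroxisomal beta-oxidation and Acadvl, very-long-chain acyl-CoA dehydrogenase, takes the first step of the mitochondrial pathway. Apob encodes apolipoprotein B, the structural protein of very-low-density lipoprotein.

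The stretches of transcript that were counted decide what each value describes. Apob (chr12:7977648-8016835 in GRCm38, the assembly also called mm10, plus strand) was counted in a 168-bp stretch of exon 16 of 28 and in 1069 bp of exon 28, both coding. A further 25 bp of exon 27 were counted as an interval of their own and stayed out of the gene sum because they are under 50 bp. Fads2 (chr19:10062765-10101746, minus strand) was counted in 111 bp of exon 2 and 74 bp of exon 3, which are coding and follow each other in the spliced transcript. Gpam (chr19:55067268-55127238, minus strand) was counted in 349 coding bp of exons 8 to 17 and in 981 bp of its 3′ UTR. Scd1 (chr19:44394455-44407879, minus strand) was counted in an interval over 614 bp of the 3′ UTR in exon 6, the last. Of these, 58 bp also lie under 2 other intervals of the human annotation, which held 0 fragments in all libraries. Fragments over more than 1 interval thus appear to have been left uncounted. That touches stretches that adjoin or nearly adjoin, exons 2 and 3 of Fads2 and exons 27 and 28 of Apob. How far fragment length enters their ratios was not tested. Ehhadh (chr16:21761287-21787807, minus strand) was counted in 64 bp of its 3′ UTR, in exon 7 of 7. Acadvl (chr11:70010183-70015411, minus strand) was counted in 96 bp, of which 95 lie in exon 2 of 19. A count belongs to a whole feature of the human annotation, and most of these features run beyond the exons named here. Fragments outside the exons then enter the count. The feature was 315 bp long for Apob exon 16, 561 bp for exon 27, 6866 bp for Scd1 and 7538 bp for Ehhadh. That of Apob exon 28 was 1069 bp long and lay wholly in the exon. Reads were counted without regard to strand, so antisense transcripts over these stretches would be included.

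Coding stretches of Apob and Fads2 that were counted separately are printed here, 5′ to 3′ on the gene's strand. Later results turn on how far stretches of 1 gene moved alike. Only the exonic part of each counted feature is shown. The sequences were read from GENCODE M21 transcripts (GRCm38), at chr12:7994818-7994985, chr12:8014093-8014117, chr19:10091741-10091851 and chr19:10089032-10089105 in the order of the lines. No letters are capitalized because no position within them was singled out. GC content was 51.2% in the Apob exon 16 stretch, 52% in exon 27, 61.3% in Fads2 exon 2 and 51.4% in Fads2 exon 3.
Apob exon 16: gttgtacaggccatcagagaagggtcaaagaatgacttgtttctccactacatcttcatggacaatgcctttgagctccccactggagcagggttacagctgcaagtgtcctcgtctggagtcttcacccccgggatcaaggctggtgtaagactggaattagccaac
Apob exon 27: gctgaatgtctacttccacccacag
Fads2 exon 2: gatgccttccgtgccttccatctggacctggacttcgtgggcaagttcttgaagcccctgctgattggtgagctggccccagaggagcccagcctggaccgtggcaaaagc
Fads2 exon 3: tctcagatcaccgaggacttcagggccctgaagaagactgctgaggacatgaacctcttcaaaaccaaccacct

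Anti-CD40 was set against control separately in mice with and without ABX, 2 comparisons that share no library. Scd1, Fads2, Gpam, Ehhadh and Acadvl were lower in anti-CD40 livers in both, and Apob was higher in both. Scd1 changed most, being 2.95-fold lower with ABX and 4.63-fold lower without, and Ehhadh was next, 2.67-fold lower with ABX and 3.74-fold lower without. Thus 5 members were called lower and 1 higher in each comparison, where a call is an adjusted p under 0.05 from edgeR's quasi-likelihood test with Benjamini-Hochberg adjustment over all 2200 genes. With ABX, 51.5% of all tested genes were called, 24.9% lower and 26.6% higher. Without ABX, 60.6% were called, 28.8% lower and 31.8% higher. The median log2 fold change of the 6 members was -0.87 with ABX and -0.97 without ABX, beside 0.02 and 0.03 over all tested genes.

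**Figure D1:**
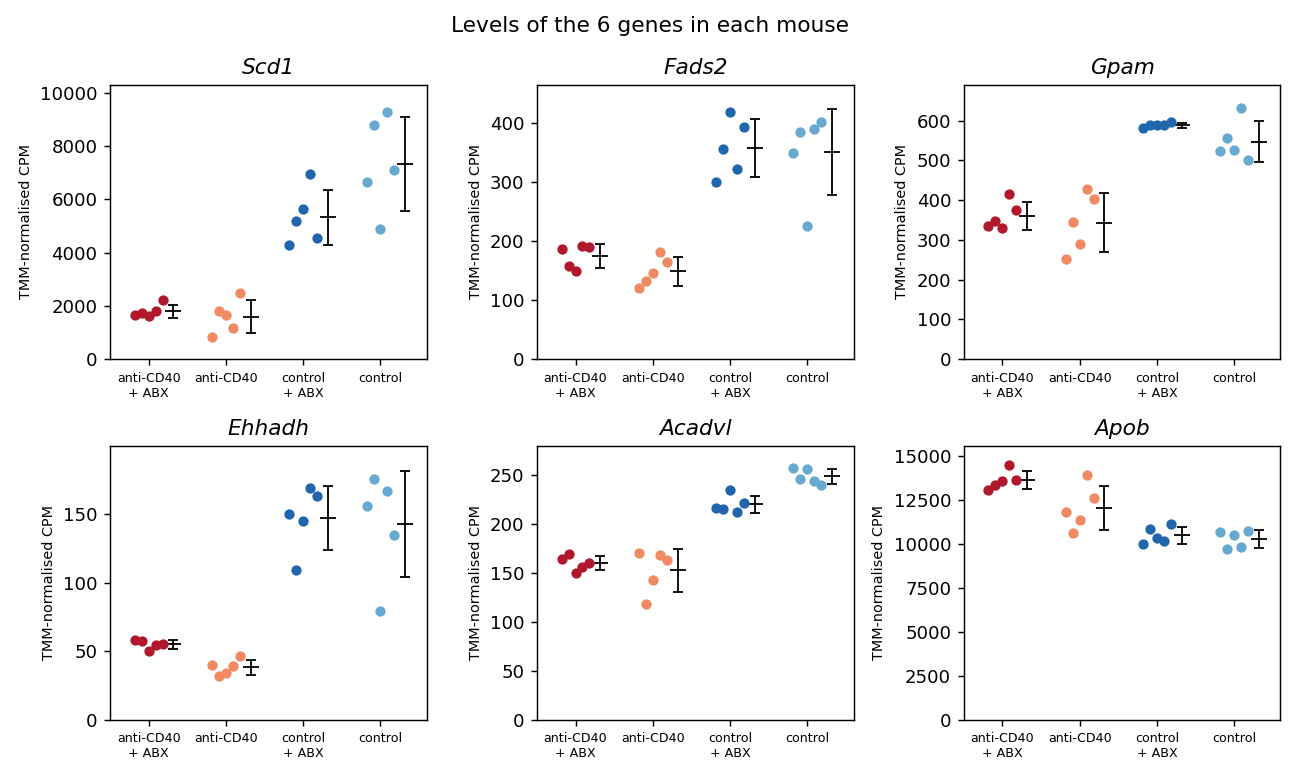
TMM-normalised CPM of each gene (vertical axis, from 0) in every mouse (dots) of the 4 groups, with the mean and SD of 5 mice beside the dots. Every anti-CD40 mouse lies below every control mouse of the same antibiotic status for the first 5 genes, and for Apob the anti-CD40 mice with ABX lie above all controls.

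Among the desaturases, Scd1 had 1654, 1727, 1605, 1807 and 2219 CPM in anti-CD40 mice 11 to 15 with ABX, against 4292, 5171, 5636, 6939 and 4559 CPM in control mice 1 to 5 with ABX. Without ABX it had 829, 1809, 1651, 1177 and 2469 CPM in anti-CD40 mice 16 to 20, against 6665, 8789, 4881, 9295 and 7105 CPM in control mice 6 to 10. The groups did not overlap in either comparison. Non-overlap was seen for 37.8% of all tested genes with ABX and 42.5% without ABX. The log2 fold change was -1.56 ± 0.23 (SE, edgeR adjusted p = 1.26e-05) with ABX and -2.21 ± 0.24 (adjusted p = 1.49e-07) without ABX. Of the 2200 genes, 128 had a lower log2 fold change than Scd1 with ABX and 65 without ABX. Scd1 was also the most variable member in anti-CD40 mice without ABX, with a coefficient of variation of 39.5%, against 24% in control mice without ABX.

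Fads2 had 186, 158, 149, 191 and 189 CPM in anti-CD40 mice with ABX, against 300, 355, 419, 322 and 393 CPM in control mice with ABX. Without ABX it had 121, 132, 145, 181 and 164 CPM in anti-CD40 mice, against 349.7, 385, 225, 390.4 and 401 CPM in control mice. The groups did not overlap in either comparison, although control mouse 8 lay well below the other controls. For Fads2 the log2 fold change was -1.04 ± 0.14 (SE, edgeR adjusted p = 1.4e-06) with ABX and -1.24 ± 0.14 (adjusted p = 9.21e-08) without ABX. Exon 2 and exon 3, counted separately, fell alike. With ABX, exon 2 changed by -1.0 ± 0.14 and exon 3 by -1.06 ± 0.14 on the log2 scale, and without ABX by -1.30 ± 0.14 and -1.20 ± 0.14. A further interval over exons 7 and 10 also lies over exons of Fads3 and Rab3il1 and was left out of the sum. It changed by -0.91 ± 0.14 with ABX and -0.97 ± 0.14 without ABX.

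Gpam had 334, 347, 329, 416 and 376 CPM in anti-CD40 mice with ABX, against 581, 588, 588, 588 and 598 CPM in control mice with ABX. Without ABX, Gpam had 252, 346, 289.6, 427 and 403 CPM in anti-CD40 mice, against 523, 556, 525, 632 and 501 CPM in control mice. The groups did not overlap, and the coefficient of variation was 1.05% in control mice with ABX. In Gpam the log2 fold change was -0.71 ± 0.11 (SE, edgeR adjusted p = 8.26e-06) with ABX and -0.67 ± 0.11 (adjusted p = 1.33e-05) without ABX. Libraries were also placed on a plate, and with the plate column as a term in the fit the value without ABX became -1.17. That value rests on anti-CD40 mouse 16 and control mice 9 and 10, the mice of that comparison that share a column. With ABX, no control mouse shares a column with an anti-CD40 mouse, so the plate term there rests on control mice without ABX.

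Of the oxidation genes, Ehhadh had 58.2, 57.5, 50, 54.8 and 55.4 CPM in anti-CD40 mice with ABX, against 150.2, 109, 145, 169 and 163 CPM in control mice with ABX. Without ABX it had 39.9, 31.9, 34.1, 39.0 and 46.5 CPM in anti-CD40 mice, against 156, 176, 79.6, 167 and 135 CPM in control mice. The groups did not overlap, and control mouse 8 was again the lowest control. For Ehhadh the log2 fold change was -1.42 ± 0.16 (SE, edgeR adjusted p = 2.2e-07) with ABX and -1.90 ± 0.17 (adjusted p = 3.17e-09) without ABX. Ehhadh was the member with the fewest fragments, 207 in the lowest library.

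Acadvl had 164, 169, 150.2, 156 and 159.9 CPM in anti-CD40 mice with ABX, against 216, 215, 235, 212 and 221 CPM in control mice with ABX. Without ABX, Acadvl had 170.3, 118, 143, 168 and 163 CPM in anti-CD40 mice, against 257, 246, 256, 244 and 239.8 CPM in control mice. The groups did not overlap in either comparison. Acadvl thus had a log2 fold change of -0.46 ± 0.08 (SE, edgeR adjusted p = 4.17e-05) with ABX and -0.70 ± 0.08 (adjusted p = 6.92e-08) without ABX. Scaled to library totals in place of TMM, which moves the median of all genes in this comparison to 0.37, the value with ABX was -0.11 (adjusted p = 0.149) and no longer called.

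Apob had 13085, 13336, 13598, 14472 and 13657 CPM in anti-CD40 mice with ABX, against 9979.5, 10875, 10363, 10169 and 11128 CPM in control mice with ABX. Without ABX, Apob had 11847, 10616, 11338, 13906 and 12598 CPM in anti-CD40 mice, against 10683, 9715, 10497, 9804 and 10728 CPM in control mice. The groups were apart with ABX and overlapped without it, where anti-CD40 mouse 17 lay below 2 controls. The Apob sum had a log2 fold change of 0.38 ± 0.08 (SE, edgeR adjusted p = 0.000422) with ABX and 0.23 ± 0.08 (adjusted p = 0.0181) without ABX. The call without ABX was lost on leaving out anti-CD40 mouse 19 (0.15, adjusted p = 0.129), anti-CD40 mouse 20 (0.20, adjusted p = 0.0695) or control mouse 7 (0.21, adjusted p = 0.0553). Scaled to library totals, Apob was at 0.72 with ABX and 0.47 without. With the plate column in the fit neither comparison was called for Apob, at 0.38 with ABX (adjusted p = 0.0591) and 0.21 without ABX (adjusted p = 0.359).

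**Figure D2:**
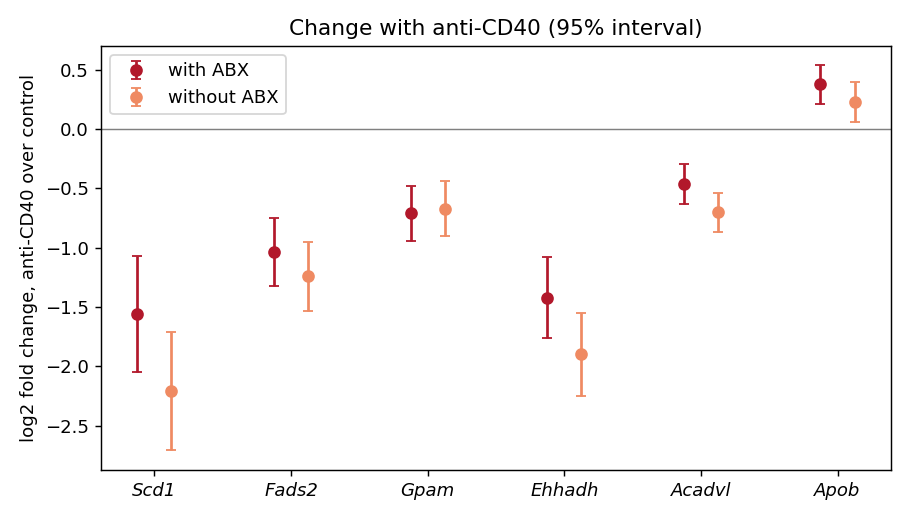
Log2 fold change of each gene, anti-CD40 over control (vertical axis), with its 95% interval, for mice with ABX (dark) and without ABX (light). Scd1, Fads2, Gpam, Ehhadh and Acadvl lie below 0 and Apob above 0 in both comparisons.

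Per kilobase of counted transcript, the order of the levels differed between the groups. In anti-CD40 mice with ABX, Apob was highest at 11018 ± 423 CPM per kb (SD, n = 5), followed by Scd1 at 2935 ± 399. Then came Acadvl at 1665 ± 74.5, Fads2 at 944 ± 105, Ehhadh at 862 ± 50.6 and Gpam at 271 ± 27.1. In anti-CD40 mice without ABX the order was the same, with Apob at 9750.0 ± 1018, Scd1 at 2584 ± 1022, Acadvl at 1589 ± 229.6, Fads2 at 803 ± 131, Ehhadh at 598 ± 88.6 and Gpam at 258 ± 55.5 CPM per kb. In control mice with ABX, Scd1 at 8664 ± 1704 and Apob at 8491 ± 391 CPM per kb lay within each other's spread. In control mice without ABX, Scd1 at 11966 ± 2876 stood above Apob at 8315 ± 395 CPM per kb on average, but their ranges overlapped, the lowest Scd1 value being 7949.9 and the highest Apob value 8673. Acadvl, Ehhadh and Fads2 lay close together in control mice without ABX, at 2589 ± 77.2, 2232 ± 602 and 1893 ± 392 CPM per kb. Which part of a gene was counted enters these levels. They divide the counts of whole features by their exonic length alone, from 64 bp for Ehhadh to 1330 bp for Gpam. The order between genes therefore need not be that of transcript abundance.

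The 3 counted stretches of Apob did not move together. With ABX, exons 27 and 28 were higher in anti-CD40 mice and exon 16 did not pass the test. Without ABX, exon 16 was lower in anti-CD40 mice, exon 27 did not pass the test and exon 28 was higher. These stretches were tested in a fit over all 5432 counted intervals, of which 50.6% were called with ABX and 57.7% without ABX. Exon 28 holds most of the fragments of the Apob sum, so the gene value above is close to that of exon 28.

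In exon 16, Apob had 1458, 789, 1345, 1355 and 919 CPM in anti-CD40 mice with ABX, against 1122, 1345, 1126, 869 and 943 CPM in control mice with ABX. Without ABX it had 515, 909, 471, 606 and 496 CPM in anti-CD40 mice, against 1361, 1113, 1239, 1183 and 1280.5 CPM in control mice. The groups overlapped with ABX and were apart without it. The log2 fold change of exon 16 was 0.12 ± 0.18 (SE, edgeR adjusted p = 0.615) with ABX and -1.04 ± 0.18 (adjusted p = 7.09e-05) without ABX. The difference between these effects, with ABX minus without, was 1.16 ± 0.26 (adjusted p = 0.0113), where 6.81% of all intervals were called. Among anti-CD40 mice, exon 16 of Apob was higher with ABX than without by 0.97 ± 0.18 (adjusted p = 0.00153), where 7.75% of intervals were called higher. With the plate column in the fit the difference was 1.38 with an adjusted p of 0.184.

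In exon 27, the 25-bp stretch, Apob averaged 389 ± 23.7 CPM in anti-CD40 mice and 304 ± 14.4 CPM in control mice with ABX (SD, n = 5 each). Without ABX it averaged 295 ± 24.5 CPM in anti-CD40 mice and 294 ± 13.6 CPM in control mice. The groups with ABX did not overlap, at 370.5 to 425 CPM in anti-CD40 mice against 283 to 323 CPM in control mice. The log2 fold change was 0.35 ± 0.07 (SE, edgeR adjusted p = 0.000136) with ABX and 0.00 ± 0.07 (adjusted p = 0.992) without. Their difference was 0.35 ± 0.10 (adjusted p = 0.0329). That call was lost on leaving out anti-CD40 mouse 14, 15, 18 or 20 or control mouse 3, 4 or 6 (0.32 to 0.35, adjusted p from 0.0521 to 0.0777), and with the plate column in the fit (0.23, adjusted p = 0.532). With library totals as the scale, exon 27 was higher without ABX too, by 0.25 (adjusted p = 0.00948).

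In exon 28, Apob had 11873, 12636, 12239, 13051 and 12734 CPM in anti-CD40 mice with ABX, against 9021, 9620.3, 9268, 9205 and 10168 CPM in control mice with ABX. Without ABX it had 11187, 9694, 10954, 13159 and 11975 CPM in anti-CD40 mice, against 9280.5, 8465, 9356, 8646 and 9409.9 CPM in control mice. Neither pair of groups overlapped. The log2 fold change was 0.40 ± 0.08 (SE, edgeR adjusted p = 0.000154) with ABX and 0.34 ± 0.08 (adjusted p = 0.000912) without, and the difference between the effects was 0.07 ± 0.11 (adjusted p = 0.767). The change without ABX was 0.31 and no longer called (adjusted p = 0.159) with the plate column in the fit.

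**Figure D3:**
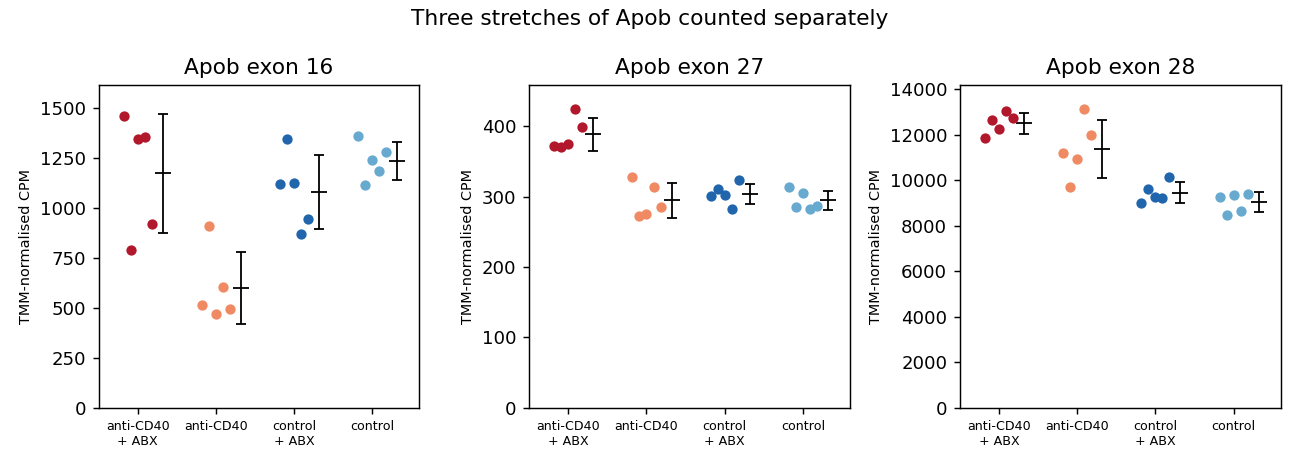
TMM-normalised CPM of the exon 16, exon 27 and exon 28 stretches of Apob (vertical axes, from 0) in every mouse (dots) of the 4 groups, with the mean and SD of 5 mice. In exon 16 the anti-CD40 mice without ABX lie at 471 to 909 CPM, below all control mice without ABX, while in exon 28 they lie above them.

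The ratio of 2 stretches within a library needs no scaling between libraries. With ABX the log2 ratio of exon 16 to exon 28 counts was -3.03, -4.00, -3.19, -3.27 and -3.79 in anti-CD40 mice, against -3.01, -2.84, -3.04, -3.40 and -3.43 in control mice. Those groups overlapped, and the difference of -0.31 had an exact two-sided permutation p of 0.214. Without ABX the ratio was -4.44, -3.41, -4.54, -4.44 and -4.59 in anti-CD40 mice, against -2.77, -2.93, -2.92, -2.87 and -2.88 in control mice. These groups did not overlap, and anti-CD40 mouse 17 stood between the other 4 and the controls. The means were -4.29 ± 0.49 in anti-CD40 mice and -2.87 ± 0.06 in control mice (SD, n = 5 each), a difference of -1.41 with an exact permutation p of 0.00794, the smallest that 5 against 5 allows. Over the 16 ratio tests made, of 4 ratios in 4 comparisons, the Benjamini-Hochberg values were 0.312 with ABX and 0.0423 without. Leaving out any 1 of the control mice without ABX gave differences of -1.43 to -1.39. The adjusted values were 0.0508 to 0.0635 by the same exact test, here of 5 against 4 mice. That test has few possible p-values at this size. The exon 27 to exon 28 ratio of Apob averaged -5.27 ± 0.14 in anti-CD40 mice and -4.94 ± 0.06 in control mice without ABX (SD, n = 5 each), and its difference was -0.33 (exact permutation p = 0.00794, adjusted 0.0423).

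A similar but smaller shift between stretches was measured in Gpam. With ABX the log2 fold change was -0.81 ± 0.12 in the coding stretch (SE, edgeR adjusted p = 1.68e-06) and -0.61 ± 0.11 in the 3′ UTR (adjusted p = 5.41e-05). Without ABX the changes were -0.90 ± 0.12 (adjusted p = 2.81e-07) and -0.46 ± 0.11 (adjusted p = 0.000897). With library totals as the scale, the 3′ UTR value without ABX was -0.22 (adjusted p = 0.0803). With ABX the log2 ratio of coding to 3′ UTR counts averaged -0.19 ± 0.17 in anti-CD40 mice and 0.01 ± 0.10 in control mice (SD, n = 5 each), a difference of -0.20 (exact permutation p = 0.0476, adjusted 0.0952). Without ABX the ratio averaged -0.31 ± 0.21 in anti-CD40 mice and 0.13 ± 0.08 in control mice, a difference of -0.45 (exact permutation p = 0.00794, adjusted 0.0423). For this ratio and for Apob exon 27 to exon 28, leaving out any 1 control mouse without ABX likewise gave adjusted values of 0.0508 to 0.0635. An interval over Gpam exons 3 and 5 that also lies over the transcript AC110206.1 changed by -0.78 ± 0.16 with ABX and -0.87 ± 0.16 without ABX. For the neighbouring exons 2 and 3 of Fads2 the ratio differed by 0.07 with ABX (exact permutation p = 0.278, adjusted 0.342) and -0.12 without ABX (p = 0.262, adjusted 0.342).

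Across the 446 tested genes with at least 2 separately counted stretches, the log2 fold change of the most upstream stretch minus that of the most downstream one had a median of -0.03 with ABX, and 57.0% of genes were below 0. Without ABX the median was -0.19, and 70.2% were below 0. Without ABX the values were -1.38 for Apob, with 10 of the 446 genes lower, -0.44 for Gpam, with 115 lower, and -0.10 for Fads2, with 268 lower. The part of RNA quality in these differences was not tested.

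**Figure D4:**
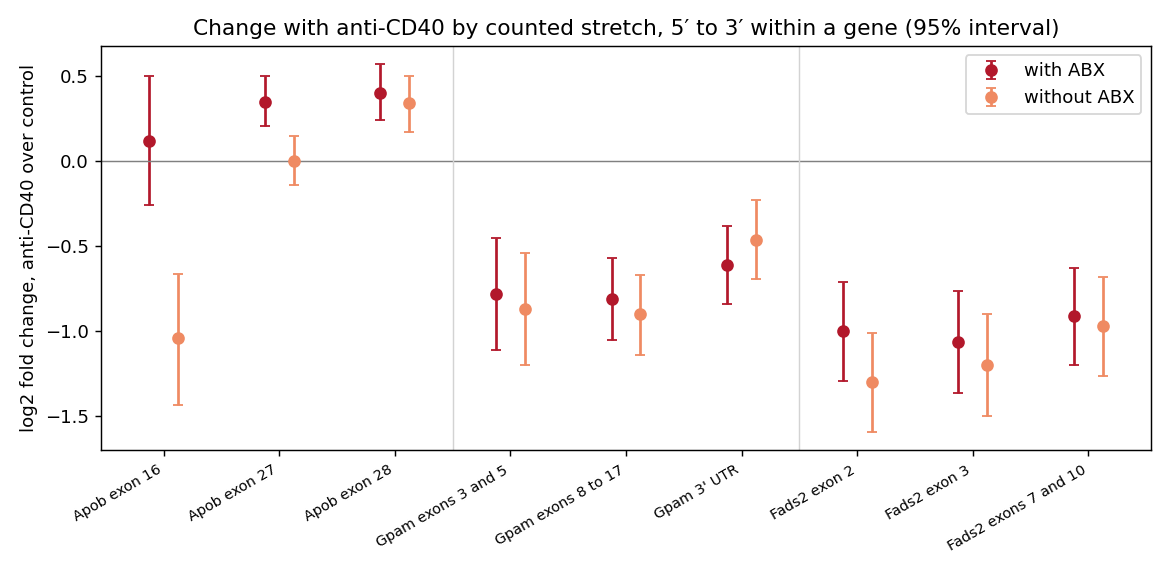
Log2 fold change, anti-CD40 over control (vertical axis), with its 95% interval, for each counted stretch of Apob, Gpam and Fads2, ordered 5′ to 3′ within a gene, with ABX (dark) and without ABX (light). Exon 16 of Apob stands apart without ABX at -1.04, while all stretches of Gpam and Fads2 lie below 0.

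Antibiotics were compared with no antibiotics within each treatment. In control mice 0 of 6 members were called by edgeR or by DESeq2, where 6.68% of all tested genes were called by edgeR, and 1 had an unadjusted p under 0.05. That was Acadvl, at 219.6 ± 9.18 CPM in control mice with ABX and 249 ± 7.41 CPM in control mice without ABX (SD, n = 5 each), whose groups did not overlap, as for 6.23% of all tested genes. Its log2 fold change was -0.18 (95% interval -0.35 to -0.01, edgeR adjusted p = 0.216). Scaled to library totals it was -0.31 (adjusted p = 0.00655). Scd1 averaged 5319.6 ± 1046 CPM with ABX and 7347 ± 1766 CPM without, a log2 fold change of -0.47 (95% interval -0.94 to 0.01, edgeR adjusted p = 0.267). For Fads2, Gpam, Ehhadh and Apob the log2 fold changes were between 0.03 and 0.10, and the widest of their 95% intervals, that of Ehhadh, ran from -0.28 to 0.37.

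In anti-CD40 mice 1 of 6 members was called, where 15.9% of all tested genes were called and 8.68% were called higher. Ehhadh was higher with ABX, at 55.2 ± 3.24 CPM, than without, at 38.3 ± 5.67 CPM (SD, n = 5 each), and the groups did not overlap, as for 221 of 2200 tested genes (10%). The log2 fold change was 0.53 ± 0.17 (SE, edgeR adjusted p = 0.0352). The call was lost on leaving out anti-CD40 mouse 11, 12, 14, 15, 16, 17, 18 or 19 (0.48 to 0.56, adjusted p from 0.0502 to 0.0905), without the filter on low counts (adjusted p = 0.075) and with the plate column (0.47, adjusted p = 0.53). Apob averaged 13629.8 ± 523 CPM with ABX and 12061 ± 1259.8 CPM without, at 0.18 ± 0.08 (edgeR adjusted p = 0.151, DESeq2 adjusted p = 0.044). Scd1, Fads2, Gpam and Acadvl had log2 fold changes of 0.18, 0.23, 0.07 and 0.07 and did not pass the test. Their 95% intervals ran from -0.29 to 0.66, -0.06 to 0.52, -0.16 to 0.30 and -0.10 to 0.24. With the plate column in the fit Scd1 was at 1.12, Fads2 at 0.53 and Gpam at 0.51. In that fit anti-CD40 mice without ABX enter through mouse 16 alone. That mouse was the lowest of its group for these genes, at 829, 121 and 252 CPM.

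The difference between the anti-CD40 effects, with ABX minus without, was called for 0 of 6 members by edgeR and by DESeq2, where edgeR called 7.55% of all tested genes. For 2 members the unadjusted p was under 0.05, at 0.48 ± 0.23 for Ehhadh (edgeR adjusted p = 0.2) and 0.25 ± 0.11 for Acadvl (adjusted p = 0.189). The difference for Scd1 was 0.65 ± 0.32 (adjusted p = 0.235), with a 95% interval from -0.03 to 1.33. With the plate column in the fit it was 1.47, where anti-CD40 mice without ABX again enter through mouse 16 alone. The median over the 6 members was 0.22, beside -0.01 over all tested genes. Leaving out control mouse 8, the control without ABX that was lowest for Fads2 and Ehhadh, gave 0.64 ± 0.16 for Ehhadh with an adjusted p of 0.0162. With library totals as the scale the Acadvl difference was 0.36 (adjusted p = 0.0263).

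Other genes of lipid metabolism were taken from 8 lists, which hold 243 genes, and 18 of these could be tested. With ABX, 5 of the 18 were higher in anti-CD40 mice, 9 lower and 4 did not pass the test, a share called of 77.8% against 51.5% over all genes, with a median log2 fold change of -0.54. Without ABX, 4 were higher, 11 lower and 3 did not pass, a share of 83.3% against 60.6%, with a median of -0.79. Elovl7 is among the higher genes in both, and it passed the filter on low counts through anti-CD40 mice alone. For ABX against no ABX, 2 of the 18 were lower in control mice (Crat at -0.71 and Aldh3a2 at -0.55) and 2 were higher in anti-CD40 mice (Gpat4 at 0.62 and Rxra at 0.47). That is 11.1% in each case, beside 6.68% of all tested genes in control mice and 15.9% in anti-CD40 mice. None of the genes for fatty acid uptake and binding could be tested.

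In fatty acid synthesis and elongation, Elovl2, which elongates polyunsaturated fatty acids, averaged 62.5 ± 7.89 CPM in anti-CD40 mice and 365 ± 51.9 CPM in control mice with ABX (SD, n = 5 each). Without ABX it averaged 49.1 ± 9.24 CPM in anti-CD40 mice and 333 ± 62.1 CPM in control mice. Its log2 fold change was -2.54 with ABX and -2.76 without. Scd2, a second stearoyl-CoA desaturase, fell with Scd1, with log2 fold changes of -1.0 with ABX and -0.94 without. Elovl7, another elongase, had 145 fragments over the 5 anti-CD40 mice without ABX and 0 over the 5 controls, which is at least 47.3-fold higher when 3 fragments over the group are taken as the floor. Scd2 and Elovl2 passed edgeR's test in both comparisons, and Elovl7 was called higher in both. Elovl7 averaged 0.196 CPM in control mice with ABX and passed the filter on low counts through anti-CD40 mice alone. It could therefore not have been called lower.

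In glycerolipid synthesis, Lpin1, the phosphatidate phosphatase that follows Gpam and Gpat4 in the pathway, averaged 32.1 ± 6.04 CPM in anti-CD40 mice and 606 ± 102 CPM in control mice with ABX (SD, n = 5 each). Without ABX it averaged 34.1 ± 11 CPM in anti-CD40 mice and 549 ± 206 CPM in control mice. Its log2 fold change was -4.24 ± 0.29 with ABX and -4.01 ± 0.29 without (edgeR adjusted p = 6.86e-10 and 1.05e-09). Gpat4, the glycerol-3-phosphate acyltransferase of the endoplasmic reticulum, averaged 336 ± 9.68 CPM in anti-CD40 mice and 403 ± 61.4 CPM in control mice with ABX. Without ABX it averaged 219 ± 60.4 CPM in anti-CD40 mice and 475 ± 48.8 CPM in control mice. Its log2 fold change was -0.26 with ABX (adjusted p = 0.133) and -1.12 without (adjusted p = 8.6e-07), and the difference of 0.86 ± 0.20 passed the test (edgeR adjusted p = 0.015). It was 0.35 (adjusted p = 0.589) and no longer called with the plate column in the fit. Gpam, which takes the same step in mitochondria, had a difference of -0.04 ± 0.16.

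In oxidation, Aldh3a2, a fatty aldehyde dehydrogenase, averaged 131 ± 19 CPM in anti-CD40 mice and 615 ± 47.1 CPM in control mice with ABX (SD, n = 5 each). Without ABX it averaged 108 ± 13.6 CPM in anti-CD40 mice and 897 ± 263 CPM in control mice. Its log2 fold change was -2.23 with ABX and -3.06 without, both past the test, and the difference of 0.82 ± 0.23 passed the test (edgeR adjusted p = 0.0359). That call was lost with the plate column (0.45, adjusted p = 0.553), without the filter on low counts (0.82, adjusted p = 0.105), and on leaving out anti-CD40 mouse 11, 14, 15, 17, 18 or 19 or control mouse 2, 4, 5, 6, 7, 9 or 10 (0.70 to 0.84, adjusted p from 0.0501 to 0.0685). Scp2, the sterol carrier protein with a peroxisomal thiolase form, fell, with log2 fold changes of -1.05 with ABX and -1.07 without. Bdh1, which interconverts the ketone bodies, fell too, at -1.39 with ABX and -1.04 without. Crat, carnitine acetyltransferase, was higher in anti-CD40 mice, by 1.05 with ABX and 0.62 without.

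In lipoprotein assembly, Mttp, the transfer protein that loads lipid onto apolipoprotein B, averaged 213 ± 16 CPM in anti-CD40 mice and 376 ± 15.8 CPM in control mice with ABX (SD, n = 5 each). Without ABX it averaged 187 ± 17 CPM in anti-CD40 mice and 400.0 ± 27.4 CPM in control mice. It fell, with log2 fold changes of -0.82 with ABX and -1.10 without (edgeR adjusted p = 1.92e-09 and 9.37e-12), whereas the Apob sum was higher in both. Apoe, an apolipoprotein of remnant clearance, fell, at -0.94 with ABX and -1.11 without, and so did Sort1, a sorting receptor that binds apolipoprotein B, at -1.05 with ABX and -0.63 without. Tm6sf2, needed for lipidation of very-low-density lipoprotein, was at 0.33 with ABX and 0.36 without and did not pass the test.

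Of the remaining listed genes, Fgfr4, the receptor through which FGF15 acts on hepatocytes, was higher by 0.55 with ABX and 0.74 without. The nuclear receptor Ppard was higher by 1.0 with ABX and at 0.26 without, where it did not pass. Rxrg was higher by 1.01 with ABX and at 0.24 without, where it did not pass either. Rxra was at -0.17 with ABX, not passing, and fell by 0.64 without. Soat1, which esterifies cholesterol, was at 0.35 with ABX, not passing, and higher by 0.75 without. Whether these effects differ between the comparisons was tested for all 18 genes, and Gpat4 and Aldh3a2 passed, 11.1% beside 7.55% of all tested genes. Neither was called with the plate column in the fit.

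**Figure D5:**
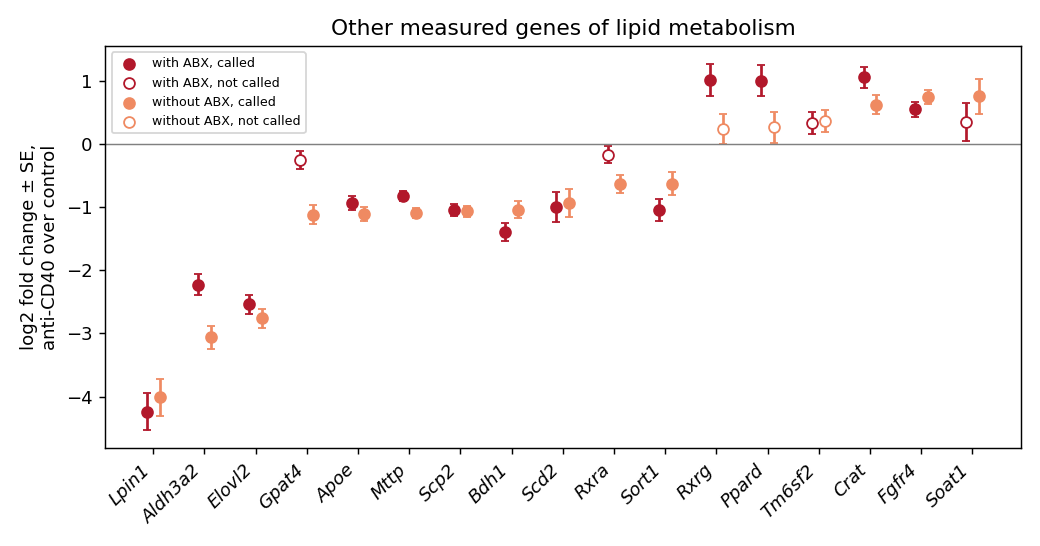
Log2 fold change ± SE, anti-CD40 over control (vertical axis), of 17 other tested genes of the lipid lists, with ABX (dark) and without ABX (light), filled where edgeR's adjusted p was under 0.05. Elovl7 is left out because control mice without ABX held 0 fragments. Lpin1 lies lowest, at -4.24 and -4.01.

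For each member, the genes with the most similar pattern were found as the 3 with the smallest mean absolute difference in log2 CPM over the 20 libraries, each gene centred on its own mean, among 2183 genes. For Scd1 they included Fam214a at 0.28 and Ttc39c at 0.29, where the median gene was at 0.98. For Fads2 they were Lipa at 0.14, Alg10b at 0.14 and Mttp at 0.15, and for Gpam they included Zfp652 at 0.11 and Oxr1 at 0.13. For Ehhadh they were Nipsnap1 at 0.16, Agxt at 0.19 and Abcc6 at 0.19, and for Acadvl Kif1c, Cpn1 and Prep, each at 0.10. For Apob they were Vav2 at 0.07, Tor1aip2 at 0.08 and Kdm2a at 0.09. Between members the closest pair was Gpam and Acadvl at 0.19 and the most distant Scd1 and Apob at 1.11. Differences between groups are part of this measure, since all 20 libraries enter it.

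The promoters of the members were read from RefSeq (GRCm38.p6), from 250 bases before to 50 after the start, because 5 of the 6 genes moved together. Entries were found for 5 of the 6 members, not for Scd1. The letters searched on both strands were TCACNCCAC (the core of a sterol regulatory element), CCAAT (a box bound by the factor NF-Y), CACGTG (an E-box) and the direct repeat with 1 spacer, the form bound by PPAR and RXR. Ehhadh held the sterol regulatory element core, 171 bases before its start, and a CCAAT box 38 bases before it. Gpam held a CCAAT box 74 bases before 1 of its starts, and no other match was found. Over 32851 promoters of the same length, the sterol regulatory element core was present in 1.24%, CCAAT in 37.4%, the E-box in 7.15% and the direct repeat in 0.0396%. A match is a description of letters and not a binding site. Both promoters with a match are printed on the gene's strand with the matches in capitals, which read as the reverse complement of the letters searched and do not overlap, for Ehhadh at chr16:21787785-21788084 and for Gpam at chr19:55127189-55127488, both on the minus strand.
Ehhadh promoter: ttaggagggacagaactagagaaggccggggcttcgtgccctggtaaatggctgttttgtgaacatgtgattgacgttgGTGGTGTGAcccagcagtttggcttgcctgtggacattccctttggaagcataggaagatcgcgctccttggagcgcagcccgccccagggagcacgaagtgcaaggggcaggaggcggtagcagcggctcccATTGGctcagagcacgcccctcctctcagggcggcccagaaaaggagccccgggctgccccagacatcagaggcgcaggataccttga
Gpam promoter: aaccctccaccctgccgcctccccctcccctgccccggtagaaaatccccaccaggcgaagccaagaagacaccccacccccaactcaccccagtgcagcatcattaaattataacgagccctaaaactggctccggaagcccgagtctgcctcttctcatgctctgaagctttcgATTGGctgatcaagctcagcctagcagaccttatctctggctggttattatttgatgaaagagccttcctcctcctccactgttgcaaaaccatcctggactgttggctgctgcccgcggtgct

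Marker genes of the liver's cell types moved with the treatment too. Of 14 hepatocyte markers 6 were tested, of which 4 were lower and 1 higher in anti-CD40 mice with ABX, and 5 lower and 1 higher without. Their summed level was 91339 to 125402 CPM in anti-CD40 mice with ABX and 61313 to 91884 CPM without. In control mice it was 224628 to 302945 CPM with ABX and 211409.5 to 232826 CPM without. Most of this sum is Alb and Serpina1e, and the 6 genes moved unevenly. With ABX and without, Alb was at -1.34 and -1.39, Serpina1e at -1.23 and -1.53, and Cps1 at -1.85 and -2.30. Asgr1 was at -0.25 and -0.29, Foxa2 at -0.10 (not passing) and -1.08, and Fgfr4 at 0.55 and 0.74. Of 8 macrophage and monocyte markers 3 were tested, and 2 were higher and 1 lower in both comparisons, with summed levels of 283 to 891, 245 to 971, 109 to 158 and 106 to 239.9 CPM in the same order of groups. Lyz2 and Ms4a7 were the higher ones and Adgre1 the lower. Ms4a7 averaged 0.787 CPM in control mice with ABX and 0.935 CPM without, and passed the filter on low counts through anti-CD40 mice. Lyz2 made up nearly all of that sum, averaging 547 CPM in anti-CD40 mice with ABX, beside 3.37 for Ms4a7 and 3.55 for Adgre1. Cfd was the 1 of 6 adipocyte markers tested, and Lep was at 0. Cfd averaged 1.82 ± 2.97 CPM in anti-CD40 mice and 1.82 ± 1.89 CPM in control mice with ABX (SD, n = 5 each), with a log2 fold change of -0.01 (edgeR adjusted p = 0.991). It was lower in anti-CD40 mice without ABX, at 0.803 ± 0.459 CPM against 10.6 ± 11.1 CPM in control mice, a log2 fold change of -3.70 (adjusted p = 0.00206).

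Both T cell markers tested, of 7, were higher in both comparisons, and their summed level was 3.24 to 6.91, 2.84 to 6.91, 0 to 0.802 and 0.419 to 1.19 CPM in the same order of groups. These markers, Cd8a and Cd8b1, averaged 0.0693 to 0.376 CPM in the control groups. They passed the filter on low counts through anti-CD40 mice alone, so they could not have been called lower. Cd8a held 2 fragments over the 5 control mice with ABX. Of 5 sinusoidal endothelial markers 3 were tested, and 2 were lower with ABX and 1 without, with sums of 14.5 to 69.8, 25.5 to 102, 89.0 to 113 and 98.1 to 145 CPM. Stab2, a scavenger receptor of these cells, had a log2 fold change of -3.83 with ABX and -3.36 without. Both stellate cell markers tested, of 5, were lower with ABX (Col3a1 at -2.29 and Lum at -1.50) and neither passed without, with sums of 6.79 to 51.3, 17.6 to 129, 75.8 to 185 and 101 to 214 CPM. Of 5 cholangiocyte markers 2 were tested: Sox9 was higher, by 2.43 with ABX and 3.05 without, and Pkhd1 was at -0.68 with ABX, not passing, and lower by 1.18 without. Their sums were 9.37 to 10.2, 14.3 to 27.7, 2.23 to 5.90 and 4.55 to 7.33 CPM. Marco, the 1 Kupffer cell marker tested, was higher by 1.72 with ABX and at 1.14 without, not passing, with levels of 22.9 to 33, 38.5 to 133, 3.36 to 18.6 and 9.50 to 93.1 CPM. Ighm, the 1 B and plasma cell marker tested, was higher by 0.71 with ABX and at 0.09 without, not passing, with levels of 27.3 to 34.6, 17.8 to 30.7, 15.1 to 20.6 and 14.2 to 28.6 CPM. No neutrophil marker lay under an attributed interval. Mitochondrially encoded transcripts took 20.9% to 25.8%, 23.7% to 25.7%, 29.5% to 35.1% and 22.4% to 31.1% of counts in the same order. The part of these shifts in the members' changes was not tested.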

How the data were processed

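The labels name total RNA from liver and standard Illumina library preparation. The submitters' processing notes list Trimmomatic 0.38, HISAT2 2.1.0 and the build mm10. Each deposited count is a whole number of fragments, not normalized, which the authors obtained with featureCounts 1.5.0-p2 (paired fragments, exons summed by gene identifier, strand not used) from a human GRCh38 annotation, per the file headers. Counts at human coordinates hold the mouse reads that fell there. Features that overlap a mouse exon of GENCODE M21 held 99.46% of counts, including any part of them outside exons. The 3576 features on chromosomes the mouse lacks held 0.

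Of 58395 features, 7463 lay over exactly 1 mouse gene by at least 50 bp (bedtools 2.31.1), covering 5552 genes; features over several genes, with 52.34% of counts, were left out. For the median tested gene, 372 bp were counted. Totals over all features were the library sizes. Genes were kept by filterByExpr, scaled by TMM and tested with edgeR 4.0.16 (R 4.3.3), robust quasi-likelihood F-test, two-sided, 1 fit of 20 libraries with 4 group means; the biological coefficient of variation was 16.7%. Log2 ratios of stretches used counts plus 0.5. Alternatives were RLE size factors, library totals, no filter, DESeq2 1.42.0, a plate column term, overlaps of 1 and 150 bp, only the groups compared, and leaving out each mouse. Tests of separate stretches and ratios, and the alternatives for Gpat4 and Aldh3a2, were added after the data had been seen.

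On simulated counts for anti-CD40 against control without ABX (2154 genes), 86.2% of genes changed 2-fold were called, 54.5% of those changed 1.5-fold and 0.408% of unchanged genes. In the simulation 66 genes were changed 1.5-fold, 65 2-fold and 62 4-fold, up and down in like numbers, and 1961 were unchanged. In the data 60.6% of genes were called, so it does not speak to false calls under so wide a change. The 6 members and the gene lists were chosen with earlier results of these data known. The text names all 6 members, every tested gene of the lipid lists and the 3 genes nearest each member, of which 2 are not reported here. All p-values measure the spread between mice.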

Additional observations from a re-analysis of the deposited data

Results flagged for a closer look

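In 40 groups of 5 values (6 genes and 4 ratios of stretches in 4 groups each), 4 held a value whose gap to its neighbour was above Dixon's 95% critical value of 0.71 of the group's range. Chance gives about 1 in 20. Fads2 in control mouse 8 without ABX was at 7.82 log2 CPM (225 CPM), where the other 4 were at 8.45 to 8.65. The Apob exon 16 to exon 28 log2 ratio was -3.41 in anti-CD40 mouse 17 without ABX, where the other 4 were at -4.59 to -4.44. The same mouse had a Gpam coding to 3′ UTR log2 ratio of 0.05, where the others were at -0.47 to -0.36. Anti-CD40 mouse 18 without ABX had a Fads2 exon 2 to exon 3 log2 ratio of -0.98, where the others were at -0.60 to -0.45.

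The anti-CD40 effect differed with antibiotics by edgeR's test of the difference for 2 stretches of Apob, exon 16 by 1.16 and exon 27 by 0.35 on the log2 scale, and for Gpat4 by 0.86 and Aldh3a2 by 0.82, each with ABX minus without. With the plate column in the fit these calls were lost, at 1.38, 0.23, 0.35 and 0.45 in the same order. In that fit the anti-CD40 group without ABX enters through mouse 16 alone, so it cannot decide whether these effects differ. The calls for Apob exon 27 and Aldh3a2 were also lost on leaving out any 1 of 7 and of 13 mice. Without mouse 17 the Apob exon 16 to exon 28 ratio differed between anti-CD40 and control mice without ABX by -1.63, in place of -1.41 with it.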

How the results depend on the processing

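Of 819 recomputed member values 778 kept direction and side of the threshold, as did 605 of 643 values for stretches. No paired analysis was possible because mouse numbers are not shared between groups. Scaling to library totals shifted the median of all genes to 0.37 with ABX and 0.27 without, and the share of calls that were higher to 76.8% and 69.7%, where TMM gave 51.6% and 52.5%. For ABX in controls it shifted the median to -0.14 and that share to 20.1% from 51.7%, and for the difference to 0.10 and to 80.3% from 57.8%. Gpam was then at -0.36 with ABX and -0.43 without. Anti-CD40 groups and control groups lie mostly in different plate columns, which limits what the plate term can separate. Fads2, Ehhadh and Acadvl had no value at the 150 bp overlap.

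With library totals, anti-CD40 against control with ABX gave -0.11 for Acadvl, and Apob exon 27 without ABX gave 0.25. ABX in control mice then gave -0.10 for Fads2, -0.02 for Gpam, -0.09 for Ehhadh, -0.31 for Acadvl and -0.10 for Apob, and the difference of effects was 0.07 for Gpam and 0.36 for Acadvl. Without the filter on low counts, Apob without ABX was at 0.21 and Ehhadh with ABX over without in anti-CD40 mice at 0.53. With only the groups compared, Apob without ABX was at 0.24, and DESeq2 gave 0.18 for Apob with ABX over without in anti-CD40 mice.

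With the plate column, genes called numbered 690 (anti-CD40 with ABX), 735 (without ABX), 77 (ABX in controls), 5 (ABX in anti-CD40 mice) and 0 (difference). These counts were 1133, 1333, 147, 350 and 166 in the fit reported. Apob was at 0.38 with ABX and 0.21 without, Scd1 at -3.31 without ABX, Ehhadh at 0.47 and Acadvl at -0.09 for ABX in anti-CD40 mice. The difference was 0.38 for Gpam, 0.23 for the Gpam 3′ UTR, 1.38 for Apob exon 16 and 0.23 for Apob exon 27, and Apob exon 28 without ABX was at 0.31 and no longer called. With the plate column, anti-CD40 mice without ABX enter through mouse 16 alone, since the others of that group have a column to themselves. How far this accounts for the lower counts was not tested.

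Leaving out each mouse gave 0.15 to 0.27 for Apob without ABX. For ABX in controls it gave -0.09 to 0.09 for Fads2, -0.11 to 0.13 for Ehhadh and 89 to 157 calls. For ABX in anti-CD40 mice it gave -0.01 to 0.18 for Gpam, 0.48 to 0.62 for Ehhadh, -0.00 to 0.13 for Acadvl, 0.14 to 0.25 for Apob and 225 to 380 calls. For the difference it gave -0.12 to 0.07 for Gpam, 0.40 to 0.64 for Ehhadh, -0.02 to 0.16 for Gpam exons 8 to 17, 0.32 to 0.40 for Apob exon 27 and 88 to 194 calls. Apob exon 27 without ABX ranged from -0.04 to 0.03. The ratios without ABX ranged from -1.63 to -1.34 for Apob exon 16 to 28, -0.38 to -0.30 for exon 27 to 28 and -0.54 to -0.41 for Gpam. The calls of these ratios were lost only on leaving out a control mouse without ABX.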
